A study of Mus musculus with 4 samples.

Results

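Tyrobp encodes DAP12, the signalling adaptor of many activating receptors of myeloid and natural killer cells, and its locus is described here with those of 6 related genes in an ATAC-seq comparison of hematopoietic stem cells (HSCs) with and without Med23, a subunit of the Mediator complex. In ATAC-seq a transposase inserts adapters into open DNA, so that reads pile up at accessible sites, and a peak is a stretch where a peak caller found the pileup above its background. The 7 genes were Tyrobp, Fcer1g, Hcst, Syk, Fes, Trem2 and Sirpa. Their members were the peaks that overlapped the annotated gene body or the 20 kb on either side of it. Tyrobp was chosen because peaks of Med23-deficient cells covered far more bases there than peaks of control cells, and the other 6 were chosen for their function. Together they were 7 of 17663 protein-coding genes with a peak in such a window. Peaks of both genotypes that overlapped by at least 1 bp were joined into regions, and the 7 windows held 29 of 45475 regions of the genome. Because Tyrobp and Hcst are neighbours, their windows shared 5 regions, and the 7 genes made up 6 separate loci.

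The cells came from bone marrow of adult C57BL/6 mice and were sorted as LSK cells positive for CD150 and negative for CD34 and CD48, with 5000 cells to a reaction. Control mice carried floxed Med23 alleles without cre, labelled WT(Med23floxp/flowp), and knockout mice carried the same alleles with a transgene, labelled KO(Mx1-cre;Med23floxp/flowp). Mx1-cre is driven by an interferon-inducible promoter and was switched on by injection of poly(I:C), which raises an interferon response, and it deletes in many blood and other cells besides HSCs. Whether the control mice of this experiment were also injected is not spelled out in the sources used here. The labels list 2 samples per genotype, but both samples of a genotype point to 1 peak list, so that every value below compares 1 WT list with 1 KO list. No difference could be set against a spread between replicates, and no test was possible.

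DAP12 and the Fc receptor gamma chain, encoded by Fcer1g, are short transmembrane proteins that carry an immunoreceptor tyrosine-based activation motif (ITAM) and lend it to receptors that lack a signalling tail of their own. When such a receptor is engaged, Src family kinases phosphorylate the tyrosines of the motif and the kinase Syk docks on them, while DAP10, encoded by Hcst, uses a different motif that recruits phosphoinositide 3-kinase. These genes are best known from macrophages, neutrophils, microglia, osteoclasts and natural killer cells, and inhibitory receptors such as the one encoded by Sirpa counter them by recruiting phosphatases.

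Sequences of 200 bases are shown for 7 peaks on which the results turn: the 3 sites that carried matches at Tyrobp and Hcst and lay outside annotated untranslated regions, the WT-only peak at the start of Fcer1g, the Syk intron with the largest ratio, and KO-only peaks near Trem2 and in Sirpa. All are plus-strand reference sequence of GRCm38 (mm10), centred on the KO summit except at Fcer1g, where the stretch was taken from within the WT peak. Capitals mark matches on either strand to 5 short motifs of blood cell factors, GAGGAAGT for PU.1, TTGCNNAA for C/EBP, TGTGGT for RUNX, AGATAA for GATA and TGANTCA for AP-1, none of which contains another.
Tyrobp upstream, chr7:30394476-30394675: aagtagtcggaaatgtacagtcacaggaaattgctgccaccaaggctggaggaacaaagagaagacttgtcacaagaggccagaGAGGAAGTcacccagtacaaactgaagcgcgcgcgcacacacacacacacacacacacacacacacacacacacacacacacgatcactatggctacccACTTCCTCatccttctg
Tyrobp proximal, chr7:30412789-30412988: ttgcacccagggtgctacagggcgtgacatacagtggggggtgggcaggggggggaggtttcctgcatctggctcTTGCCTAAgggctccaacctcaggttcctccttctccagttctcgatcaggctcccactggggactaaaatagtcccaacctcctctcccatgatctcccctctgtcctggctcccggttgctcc
Hcst start, chr7:30419542-30419741: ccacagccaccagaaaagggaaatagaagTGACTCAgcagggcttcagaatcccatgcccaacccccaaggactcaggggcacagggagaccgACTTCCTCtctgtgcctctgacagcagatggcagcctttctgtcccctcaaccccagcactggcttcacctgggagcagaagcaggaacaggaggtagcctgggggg
Fcer1g WT-only peak, chr1:171234046-171234245: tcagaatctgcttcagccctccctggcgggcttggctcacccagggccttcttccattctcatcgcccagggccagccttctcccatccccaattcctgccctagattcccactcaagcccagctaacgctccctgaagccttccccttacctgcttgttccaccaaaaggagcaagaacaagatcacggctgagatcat
Syk intron, chr13:52615024-52615223: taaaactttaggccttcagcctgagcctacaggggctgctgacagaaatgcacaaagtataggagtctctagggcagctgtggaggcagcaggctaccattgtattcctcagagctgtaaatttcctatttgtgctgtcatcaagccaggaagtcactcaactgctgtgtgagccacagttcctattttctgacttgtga
Trem2 upstream KO-only peak, chr17:48341990-48342189: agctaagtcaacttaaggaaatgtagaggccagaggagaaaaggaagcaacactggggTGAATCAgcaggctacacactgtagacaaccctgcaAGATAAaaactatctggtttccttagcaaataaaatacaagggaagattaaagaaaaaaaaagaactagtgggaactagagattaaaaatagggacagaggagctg
Sirpa intron KO-only peak, chr2:129595991-129596190: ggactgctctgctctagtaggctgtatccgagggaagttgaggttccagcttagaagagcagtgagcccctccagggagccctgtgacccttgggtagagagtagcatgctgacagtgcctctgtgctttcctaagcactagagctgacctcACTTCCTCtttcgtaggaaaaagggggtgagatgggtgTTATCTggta
The upstream Tyrobp site held GAGGAAGT once on each strand, and the proximal Tyrobp site held the C/EBP letters. The Hcst site held the PU.1 and AP-1 letters, the Trem2 site the AP-1 and GATA letters, and the Sirpa site the PU.1 and GATA letters. The Fcer1g and Syk stretches held none of the 5.

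At genome scale the lists were close in size, with 37887 WT and 37615 KO peaks on the autosomes and chromosome X, covering 27.2 and 26.8 Mb. The median pileup at a summit, the number of overlapping fragments or reads at the highest point of a peak, was 18 in WT and 19 in KO, and in neither list did a peak have a pileup under 6. Med23 itself had 1 peak in each list, with a promoter pileup of 64 in WT and 85 in KO, and a promoter peak does not check the deletion. Of 10 stem cell markers, 7 had a promoter peak in each list, and Ly6a, Slamf1 and Procr had none in either. Of 12 markers of mature myeloid cells, 5 had a promoter peak in WT and 3 in KO, with summed promoter pileups of 65 and 41, and Csf1r, Itgam, Ly6g, Elane, Mpo, Adgre1 and Cd68 had none in either list. Lymphoid and natural killer cell markers had 1 of 8 in each list, erythroid markers 1 of 4 in each, and megakaryocyte markers 2 of 4 in WT and 3 of 4 in KO. Covered bases in windows drawn as for the 7 genes were more in KO at 6 stem cell markers and more in WT at 4. The counts were 5 and 6 for mature myeloid, 2 and 4 for lymphoid and natural killer, 1 and 3 for erythroid, and 0 and 4 for megakaryocyte markers. Over all coding genes with a peak, 49% had more in KO and 50.9% more in WT. The part of other cells in the peaks at the 7 genes was not tested.

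Tyrobp is a compact gene on chromosome 7, from 30413760 to 30417585 on the plus strand (ENSMUSG00000030579.10), that stands tail to tail with Hcst. Its window held 5 WT and 6 KO peaks, which formed 5 shared regions and 1 KO-only region. The WT peaks covered 3621 bases and the KO peaks 5133, a difference of 1512 bases and a ratio of 1.42. Tyrobp was chosen by this difference, which is therefore given as a description. A difference at least as large occurred at 1.59% of all coding genes with a peak in their window. The plot of peaks along the locus shows where the additional bases lay.

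**Figure D1:**
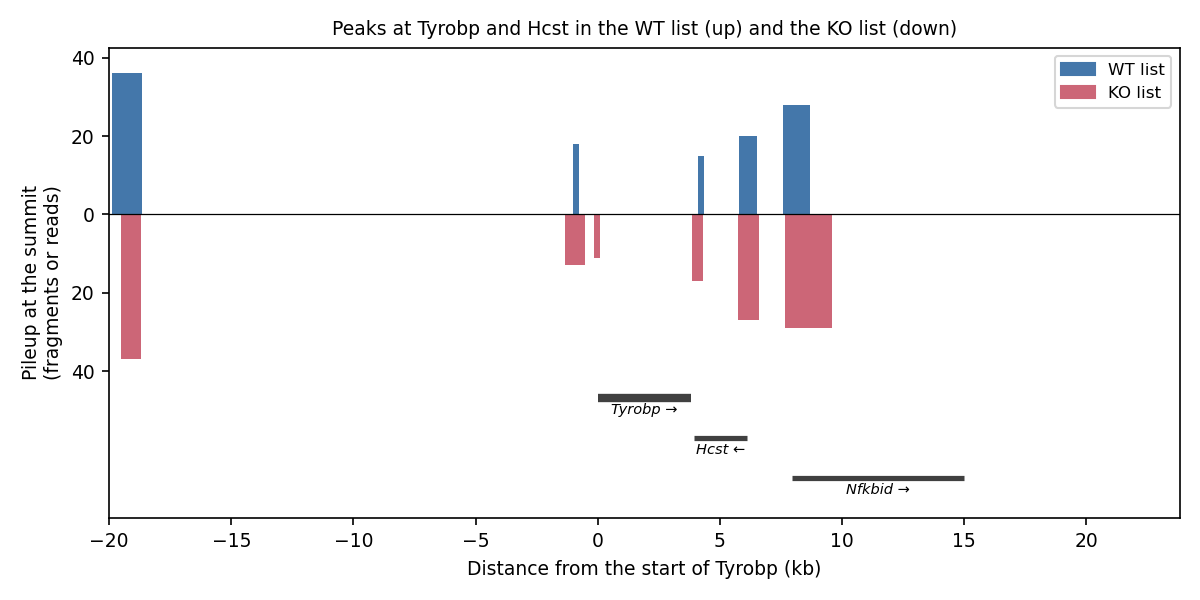
Peaks in the Tyrobp window, with distance from the start of Tyrobp in kb on the x axis and the pileup at the summit on the y axis, WT peaks drawn upward and KO peaks downward. Box width is the width of the peak, and dark bars mark only the genes named in the text. The 5 shared regions have KO pileups from 13 to 37 and WT pileups from 15 to 36, while the KO boxes at the start of Nfkbid and just upstream of Tyrobp are wider, and the KO box at the start has no WT partner.

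The covered bases of the Tyrobp window were not all at Tyrobp. The region around the start of Nfkbid, which encodes a nuclear inhibitor of the NF-kappaB family, was 1121 bases wide in WT and 1922 in KO and contributed 801 of the 1512 additional bases, or 53.0%. Regions whose summit was nearest to the start of Hcst contributed 315 bases, and those nearest to the start of Tyrobp contributed 396. Shared regions gave 1247 of the additional bases and the KO-only region 265.

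At the regions upstream of Tyrobp, peak width and summit height moved differently. The farthest region lay in intergenic DNA 19144 bases upstream of the gene in WT and 19184 in KO, at chr7:30393896-30395123, and was the tallest of the locus. Summit pileups of 36 in WT and 37 in KO gave a log2 KO to WT ratio of 0.13 (95% interval −0.58 to 0.83). Each ratio is that of the summit pileups over the genome-wide background of each list, and its exact binomial interval covers counting error only. Each pileup is taken at its own list's summit, and the interval does not allow for summits that lie apart. The peak was narrower in KO, at 807 bases against 1228 in WT.

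The proximal region, whose summit lay 892 bases upstream of Tyrobp in WT and 871 in KO, had the opposite shape. It spanned 280 bases in WT and 832 in KO, at chr7:30412418-30413249, yet its summit reached 18 in WT against 13 in KO. The log2 ratio of −0.38 (−1.53 to 0.73) lay at percentile 9.13 of all shared regions. The KO to WT width ratio of 2.97 was reached by 0.723% of shared regions, but this widening is part of the covered-base difference by which Tyrobp was chosen and the share is a description. A wider but lower KO peak was also the case in 14.2% of shared regions genome-wide. Its interval spans 0, so that counting error alone could place the ratio on either side.

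The start of Tyrobp lay inside a KO peak and outside every WT peak. The KO-only peak spanned chr7:30413590-30413854, with its summit 21 bases inside the gene, 7 bases before the start of one annotated transcript and 71 before that of another. Its pileup was 11 over a local background of 2.19, for a fold enrichment of 3.76 and a −log10 q of 3.27. That enrichment was at percentile 5.73 of the KO list, so the peak was among its weaker ones. The start base lay in a KO peak only at 3.62% of coding genes with a peak in their window, in a WT peak only at 3.85%, and in peaks of both lists at 58.2%. The bases of this peak also belong to the difference by which Tyrobp was chosen.

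Hcst, from 30417712 to 30419854 on the minus strand (ENSMUSG00000064109.8), encodes the DAP10 adaptor and had 4 WT and 5 KO peaks. They covered 2393 bases in WT and 4326 in KO, a difference of 1933 that is largely the same peaks as at Tyrobp and is not an independent observation. At its start, which was covered in both lists, the pileup was 20 in WT and 27 in KO and the width 753 and 850 bases. The log2 ratio there was 0.52 (−0.37 to 1.43), the highest at the Tyrobp and Hcst locus, and its interval includes 0. The summits lay 195 bases apart, in the 5′ untranslated region in WT and in an intron in KO. A weaker region at the 3′ end of Hcst had pileups of 15 in WT and 17 in KO, with a log2 ratio of 0.27 (−0.82 to 1.37) and widths of 239 and 457 bases. Its summits lay 455 bases apart, in a coding exon of Hcst in WT and between the ends of Tyrobp and Hcst in KO. The Nfkbid start had pileups of 28 in WT and 29 in KO, with a log2 ratio of 0.14 (−0.66 to 0.94) and summits 396 bases apart.

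The local background was high across this stretch in both lists. In the Hcst and Nfkbid regions it was 5.04 to 5.12 in WT and 4.71 to 4.92 in KO, against medians over all peaks of 1.85 and 1.67. Fold enrichment at the Hcst start was 3.47 in WT and 4.90 in KO, below the list medians of 6.38 and 7.44. Summed over the 5 shared regions of the Tyrobp window pileups came to 117 for WT against 123 for KO, a log2 ratio of 0.16 (−0.22 to 0.54). The median over all 28909 regions with 1 peak of each list was 0.17, and single regions of the Tyrobp window lay on both sides of it.

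Fcer1g differed from Tyrobp in direction. It lies on chromosome 1, from 171229572 to 171234365 on the minus strand (ENSMUSG00000058715.11), and its window had 3 WT and 2 KO peaks. They covered 1947 bases in WT and 1354 in KO, a difference of −593 bases at percentile 14.3 of coding genes. The start of Fcer1g lay inside a WT peak and outside every KO peak. That WT-only peak spanned 844 bases at chr1:171233554-171234397, with a pileup of 11, a fold enrichment of 4.06 and a −log10 q of 3.70. Its summit lay 126 bases inside the gene in a coding exon. Like the KO-only peak at Tyrobp it was weak for its list, at percentile 11.6 of fold enrichment. The tallest peak in the window belongs to a neighbour. Upstream of Tomm40l, a subunit of a mitochondrial import complex, the pileup was 67 in WT and 84 in KO, with a log2 ratio of 0.41 (−0.07 to 0.90).

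Syk, the kinase that docks on phosphorylated ITAMs, lies on chromosome 13, from 52583173 to 52648792 on the plus strand (ENSMUSG00000021457.14). It had 5 peaks in each list, which covered 3172 bases in WT and 3812 in KO, a difference of 640. Both lists covered its start, with a pileup of 20 in WT and 19 in KO and a log2 ratio of 0.01 (−0.97 to 0.99). At an alternative start 13733 bases into the gene the pileup was 22 in WT and 20 in KO, and 10521 bases upstream of the gene it was 34 and 36. The log2 ratios at these were −0.05 and 0.17, and both intervals included 0. Summit height at these 3 Syk regions thus differed by at most 2 between the lists.

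An intronic region of Syk stood apart from the other shared regions. It lay 31813 bases into the gene in WT and 31951 in KO, at chr13:52614594-52615332, and its summit reached 9 in WT against 19 in KO. Its width was 252 bases in WT and 739 in KO, which makes up 487 of the 640 additional bases at Syk. The log2 ratio was 1.16 (−0.05 to 2.49), at percentile 98.8 of shared regions. It was the only one of the 18 shared regions at least 1.5-fold higher in KO, where 14.9% of shared regions genome-wide passed that fold, and none was 1.5-fold lower, against 3.66% genome-wide. Even here the interval included 0. Syk also had a KO-only peak 5067 bases upstream, with a pileup of 9, and a WT-only intronic peak 45644 bases into the gene, with a pileup of 8.

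Fes encodes a myeloid-enriched cytoplasmic tyrosine kinase with its own SH2 domain that acts downstream of several receptors. It lies on chromosome 7, from 80377756 to 80387946 on the minus strand (ENSMUSG00000053158.10), and had 6 peaks in each list. They covered 4187 bases in WT and 4706 in KO. The broad peak over its start was the widest at any of the 7 genes in both lists except for the Nfkbid peak of KO, at 1708 bases in WT and 1703 in KO. Its pileup was 32 in WT and 27 in KO, with a log2 ratio of −0.16 (−0.95 to 0.63). The 519 additional KO bases were not at Fes itself. Regions nearest to the start of Furin, a neighbouring proprotein convertase gene, covered 665 bases more in KO, those nearest to Man2a2, a Golgi mannosidase gene, covered 141 fewer, and those nearest to Fes covered 5 fewer. A WT-only peak 13790 bases downstream of the Fes start had a pileup of 21 and a −log10 q of 6.74, the strongest of the peaks present in 1 list only. In the Furin gene 1 shared region had pileups of 13 in WT and 16 in KO, at summits 391 bases apart. Another had 17 and 11, and a KO-only peak had 10. The local background around Fes lay between 2.78 and 5.03 in WT, and between 1.61 and 3.20 in KO.

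Trem2, a lipid-sensing receptor that signals through DAP12, had the fewest peaks of the 7 genes. It lies on chromosome 17, from 48346401 to 48354147 on the plus strand (ENSMUSG00000023992.14), and its window held 1 peak in each list at different places. The KO-only peak lay 4311 bases upstream, with a pileup of 7 and a width of 291 bases. The WT-only peak lay in an intron of Treml1, 14246 bases from the Trem2 start, with a pileup of 7 and a width of 376 bases. Neither list had a peak over the gene or its start, and both peaks were near the smallest pileup listed.

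Sirpa encodes a receptor on myeloid cells that recruits phosphatases upon binding CD47. It lies on chromosome 2, from 129592835 to 129632228 on the plus strand (ENSMUSG00000037902.18), and had 4 WT and 3 KO peaks. Its peaks covered 2687 bases in WT and 1693 in KO, a difference of −994 at percentile 5.34 of coding genes, the largest toward WT among the 7 genes. The region at the start narrowed from 1553 bases in WT to 1129 in KO while its pileup was 24 in WT and 27 in KO, with a log2 ratio of 0.26 (−0.59 to 1.11). The intronic region 13689 bases into the gene had 13 in WT and 12 in KO. WT-only peaks with pileups of 9 and 8 lay 6894 bases upstream of the gene and 40947 bases from its start, past its end. A KO-only intronic peak 3256 bases inside the gene had a pileup of 17.

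**Figure D2:**
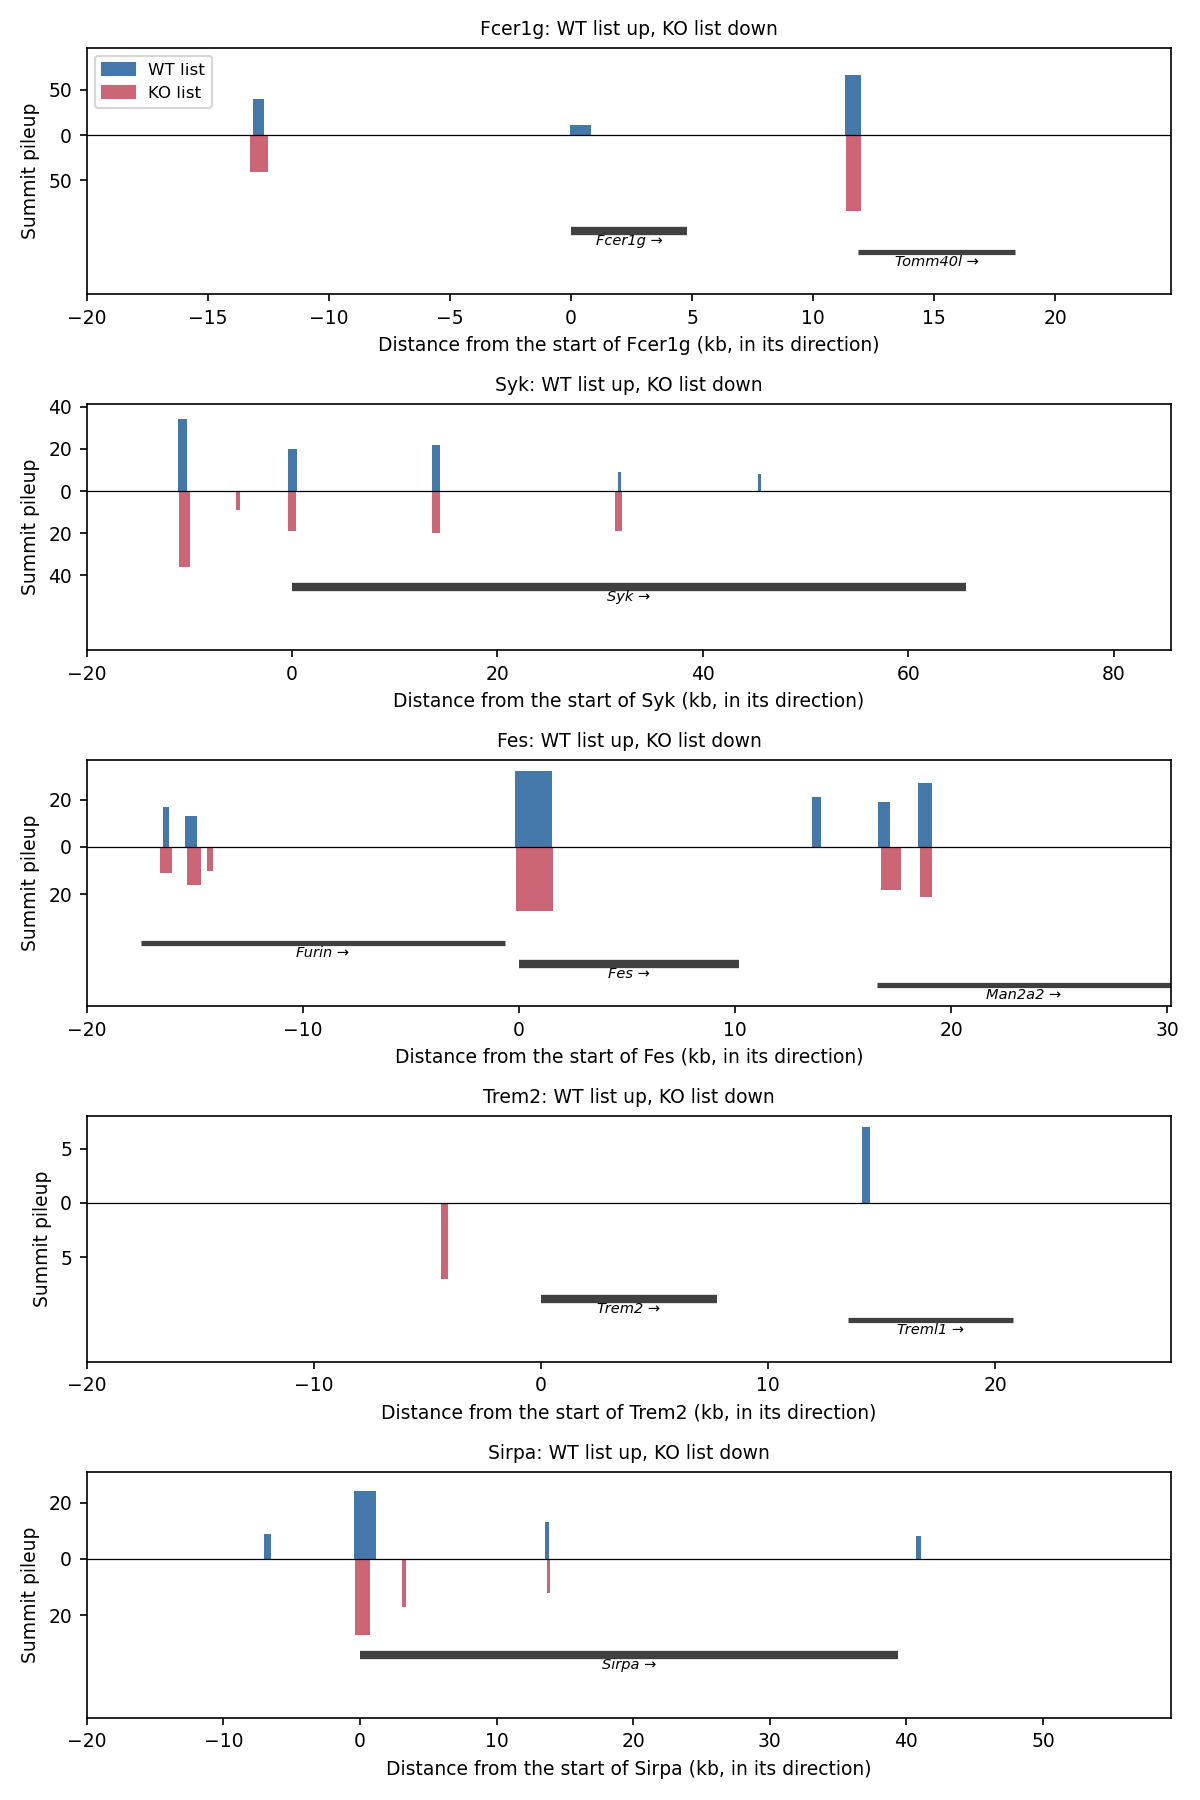
Peaks in the windows of Fcer1g, Syk, Fes, Trem2 and Sirpa, with distance from each gene's start in kb on the x axis (in the gene's own direction) and summit pileup on the y axis, WT upward and KO downward. Dark bars mark only the genes named in the text. The start of Fcer1g has a peak in WT only, the intron of Syk has a KO pileup of 19 against 9 in WT, and Trem2 has 1 peak of 7 in each list at different places.

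Of the 7 genes, 4 had more covered bases in KO, namely Tyrobp, Hcst, Syk and Fes, and 3 had more in WT, namely Fcer1g, Trem2 and Sirpa. Over all coding genes 49% had more in KO and 50.9% had more in WT. The median difference over the 7 genes was 519 bases toward KO, and over all coding genes it was −11. The 519 counts Tyrobp, which was chosen for its difference, and Hcst, which shares its peaks, so it is a description. That leaves 5 genes whose windows share no peak with another of the 7. The middle difference of these 5 was −85 bases, at Trem2. Of the 5, Syk and Fes had more covered bases in KO, and the additional bases at Fes lay in regions nearest to the start of Furin.

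**Figure D3:**
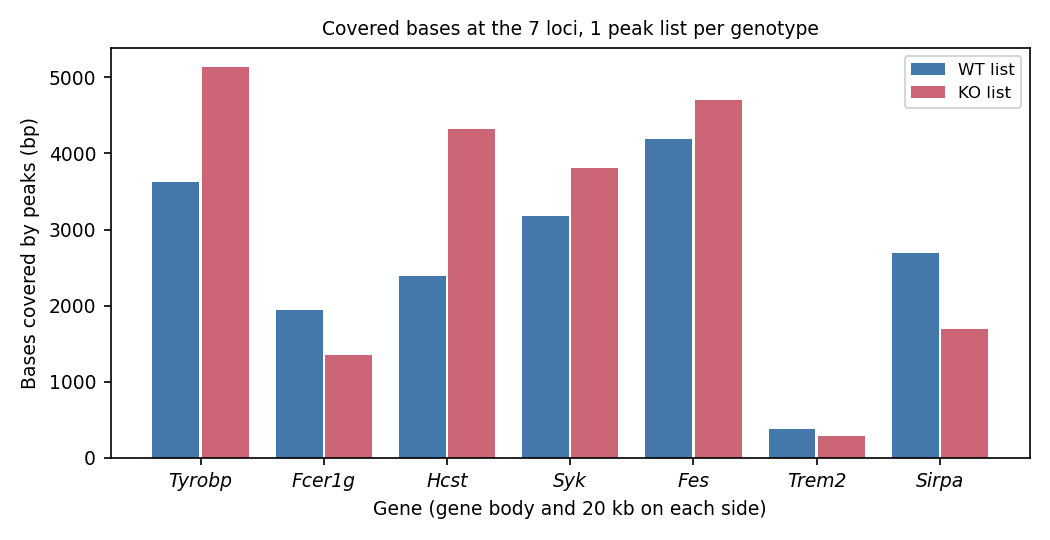
Bases covered by peaks, in bp, in the gene body and the 20 kb on each side of the 7 genes, with 1 bar for the WT list and 1 for the KO list and no error bar because each genotype has 1 list. KO bars are taller for Tyrobp (5133 against 3621), Hcst, Syk and Fes, and shorter for Fcer1g, Trem2 and Sirpa.

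Of the 29 regions, 18 were shared, 6 were WT only and 5 were KO only. The shares over the genome were 64.8%, 18.1% and 17.2%. The regions present in 1 list had low fold enrichments, between percentiles 4.69 and 21.6 of their list, with pileups from 7 to 21. Some shared regions were as low, such as that at the 3′ end of Hcst, at percentile 0.162 in WT and 0.372 in KO. Of the 11 regions present in 1 list, 9 had a −log10 q under 5, which held for 56.8% of the peaks present in 1 list genome-wide. Of the 29 regions, 19 were nearest to the start of 1 of the 7 genes, among them 4 WT-only and 4 KO-only regions, and 10 were nearest to a neighbour.

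Among the 18 shared regions the log2 KO to WT ratio ranged from −0.54 to 1.16 with a median of 0.12, which became −0.04 once centred on the genome-wide median. Uncentred, it was above 0 in 12 of them, where 65.6% of shared regions were above 0 genome-wide. In 0 of the 18 did the interval exclude 0, and in 0 did it exclude the genome-wide median of 0.17. Summed pileups over all 18 were 454 in WT and 474 in KO, for a log2 ratio of 0.15 (−0.04 to 0.34). Of the 18, 11 were wider in KO, against 51.2% genome-wide. Among these were the proximal Tyrobp region, the Hcst regions and the Nfkbid start, while the farthest upstream Tyrobp region was narrower in KO. Tyrobp was chosen because KO peaks covered more bases in its window. The count of wider regions is therefore a description and not an independent observation. In 7 of the 18, width and pileup ratio moved in opposite directions, against 42.6% genome-wide. Across all 28909 shared regions the log2 width and pileup ratios had a Pearson r of 0.27 and a Spearman rho of 0.24, a description over regions that share the same pair of lists.

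**Figure D4:**
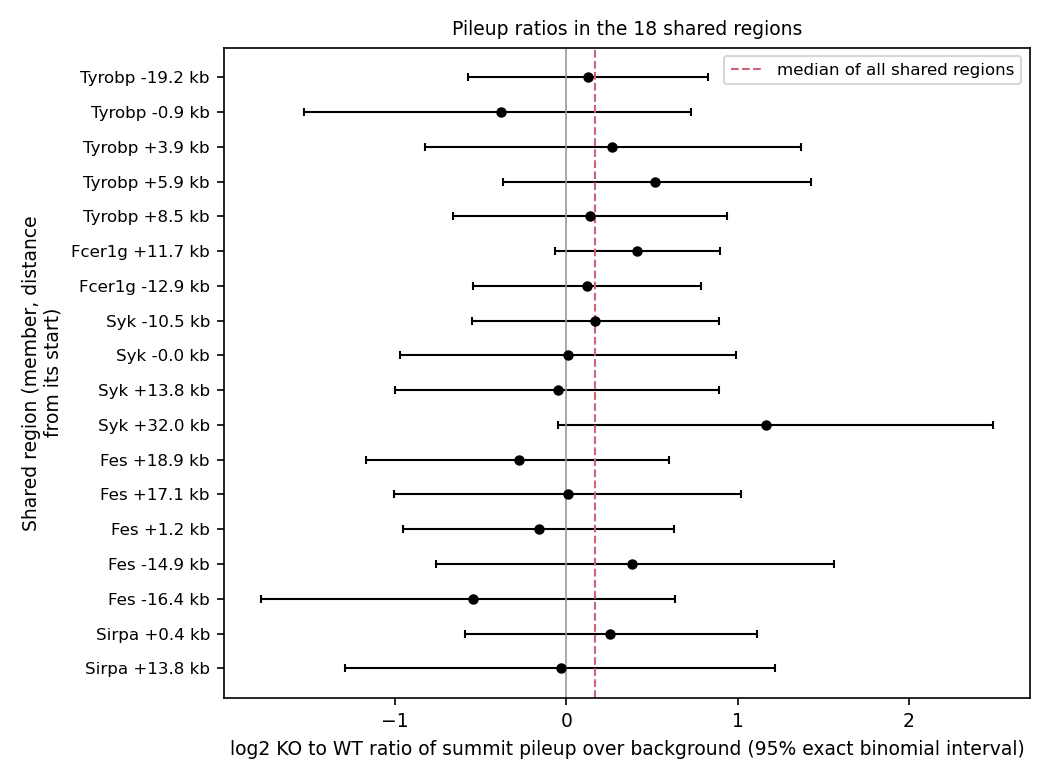
Log2 KO to WT ratio of summit pileup over background in the 18 shared regions, with points for the ratios and bars for 95% exact binomial intervals that cover counting error only. The intervals all span 0 (grey line) and the median of all shared regions, 0.17 (dashed line), and the intronic Syk region has the highest ratio, 1.16.

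Motif matches within 200 bases centred on each summit were counted for all peaks. The letters GAGGAAGT or their reverse complement occurred at 6 of the 23 KO summits of the 7 genes, where 6.89% of all KO summits had them, and at 2 of the 24 WT summits, where 6.14% of all WT summits had them. Of the 6 KO summits, 4 were at the Tyrobp and Hcst locus, and of the WT summits 1 was. Tyrobp was chosen by the bases that KO peaks of this locus covered, so the count there is a description and not an independent observation. The DNA is the same in both genotypes. The counts differ because the KO summits at the 3′ end and the start of Hcst were 455 and 195 bases from the WT ones. They differ also because the Tyrobp start and the site 3256 bases inside Sirpa had a peak in KO only. TTGCNNAA occurred at 1 summit in each list, the proximal Tyrobp site in both, against 7.64% of KO and 7.82% of WT summits. AGATAA occurred at 3 KO and 5 WT summits, against 8.44% and 8.56%, TGTGGT at 2 and 4, against 20.1% and 19.95%, and TGANTCA at 3 and 2, against 7.93% and 7.72%. The letters are a description and say nothing of binding.

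A list of 76 further genes of the pathway was read in the same way. Of the 70 with a peak in their window, 38 had more covered bases in KO and 32 more in WT, with a median difference of 30.5 bases, against 49% with more in KO, 50.9% with more in WT and a median of −11 over all coding genes. The majority depended on the window, since with 10 kb on each side 27 of 65 genes had more in KO, with 50 kb 31 of 74, and with peaks limited to a −log10 q of at least 10, 40 of 63. Over all coding genes with a peak the shares at these settings were 49.2%, 48.1% and 57.7%, so the threshold moved the whole lists toward KO as well. Windows of 16 of the 70 genes overlapped that of another listed gene, and 4 genes held the same covered bases as a neighbour, namely Cd3d with Cd3g and Trem1 with Trem3. Among the 6 other signalling chains 4 had more in KO, of which Cd3d and Cd3g, further chains of the T cell receptor complex, are 1 observation. Cd247, the zeta chain of the T cell receptor, went from 2102 bases in WT to 4084 in KO, and Cd79b, a chain of the B cell receptor, from 1295 to 0. Receptors that pair with an adaptor had 8 with more in KO and 6 with more in WT of 14 with a peak. Src and Syk family kinases were split 3 to 4, with Lck, the T cell kinase, at 3626 bases in WT and 2188 in KO. Downstream genes were split 10 to 11, with the kinase Tec at 4188 and 5723. Of 19 inhibitory genes with a peak, 13 had more in KO, among them Pag1, which anchors an inhibitor of Src kinases, at 3133 and 4667, while the phosphatase gene Inpp5d had 5175 in WT and 2697 in KO. Fer, the closest relative of Fes, had more in WT, and so did both receptors with a motif of their own. The windows of these receptors overlapped, so they are not separate observations, and a further listed receptor of this kind had no match in the annotation.

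The coding genes outside these windows with covered bases most like those of Tyrobp, by Euclidean distance over the pair of lists, were Gnal (3616 in WT and 5092 in KO), Clcn2 (3645 and 5190), D17Wsu92e (3673 and 5096), Gps2 (3638 and 5234) and Gm16253 (3510 and 5051). Their distances from Tyrobp were 41.3 to 138.0 bases.

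The covered bases depended on how the window was drawn, and most of all at Tyrobp. Within the gene body alone Tyrobp had 0 covered bases in WT and 95 in KO, and with 10 kb on each side it had 2393 and 4326. Counting only peaks nearest to its own start left 1508 in WT and 1904 in KO. With peaks limited to a −log10 q of at least 10, Tyrobp had 1228 and 3579. Peaks close to that threshold weigh on these values. At the Nfkbid start the WT peak, of −log10 q 9.87, was dropped and the KO peak, of 11.5, was kept. At the Hcst start the KO peak passed at 10.0 and the WT peak, at 4.68, did not. KO was above WT at Tyrobp, Hcst and Syk, and below it at Sirpa, under each of the 6 settings tried, while Fes, Fcer1g and Trem2 changed sign under at least 1. The settings reuse the same peaks. Tyrobp was chosen by this difference and Hcst shares its peaks, so the unchanged sign at both is a description and not support. Fcer1g went from −593 bases to 251 once its WT-only peak, of −log10 q 3.70, fell under the threshold of 5. The number of the 7 genes with more covered bases in KO was 4 in the gene body alone (48.9% of coding genes), 3 with 10 kb on each side (49.2%), 5 with 50 kb (48.1%), 5 once peaks with a −log10 q under 5 were dropped (55.2%) and 4 once those under 10 were dropped (57.7%). The shares are over coding genes with a peak at that setting, and Trem2 had none in the gene body alone or at either threshold.

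**Figure D5:**
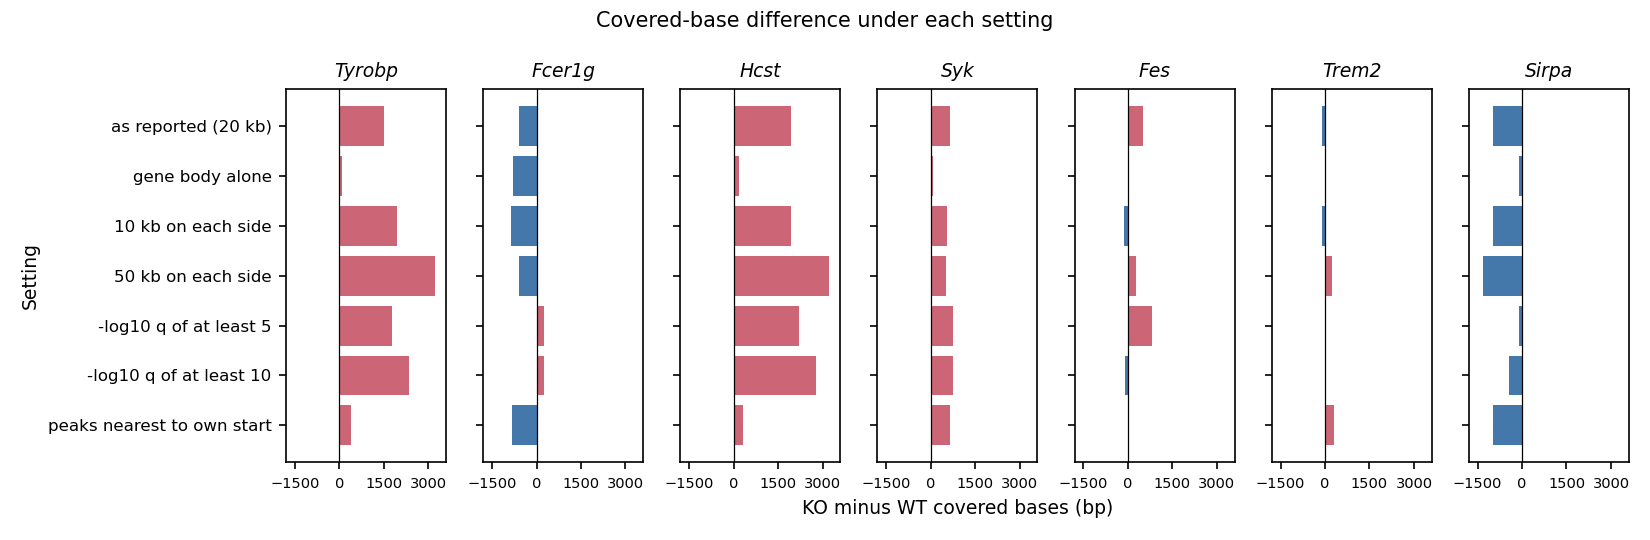
KO minus WT covered bases, in bp, for each of the 7 genes as reported and under 6 other settings of window, threshold and peak assignment, with red bars toward KO and blue bars toward WT. Tyrobp ranges from 95 in the gene body alone to 3207 with 50 kb on each side, and the bars of Fcer1g, Fes and Trem2 change side.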

How the data were processed

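ATAC-seq peaks of 4 samples, 2 per genotype, were available as 1 WT and 1 KO peak list. Per the study's methods and the submitters' processing notes, reads were trimmed with trim_galore, aligned to mm10 with Bowtie2, cleared of duplicates and mitochondrial reads with Picard, and peaks were called with MACS2 without a fragment model. Versions, and whether the replicates were pooled, are not given in the sources used here. The study's methods give the sort without CD34, which the labels include. Per peak, the deposited lists give a fold enrichment of the summit over the background around it, a p and a q that the authors left on the −log10 scale, and a whole-number score (deposited but not used). Read depth per sample is unknown.

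Only the 19 autosomes and chromosome X were used. The pileup and local background at each summit were solved from the fold enrichment and the −log10 p under the Poisson model of the caller, and the −log10 p was met to within 0.001 by 100% of peaks. A log2 KO to WT ratio divides each pileup by the genome-wide background of its list (median of the 1000 lowest local backgrounds, 1.19 in WT and 1.13 in KO), with no pseudocount, in regions with 1 peak of each list. Intervals are exact binomial 95% ones, cover counting error only and do not allow for summits that lie apart. Genes, exons and starts are from GENCODE M21 on GRCm38.p6, the build of the lists, and promoters are the 1000 bases on either side of a start. Sequences are from that reference. The RefSeq promoter table matched 5 of the 7 genes (Fcer1g, Hcst, Fes, Syk and Trem2). The recovery and the ratios were tested on simulated data. Python 3.11.15, numpy 2.4.6, pandas 2.3.3, scipy 1.17.1 and pysam 0.24.0 were used.

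The 7 genes, the pathway list, the marker lists and the motifs were chosen with earlier results of these data known, and none of the counts is independent evidence. The genes named are the 7, Med23, coding genes with a start within 1 kb of a summit in a window, the 3 pathway genes with the largest difference in each direction, and the 5 genes nearest to Tyrobp in covered bases. Marker genes without a promoter peak in either list, and Man2a2, Furin, Treml1, Fer, Cd3d, Cd3g, Trem1 and Trem3, are named besides because a peak or a count falls on them, and were chosen after their values were seen. A result at 1 neighbouring gene is not reported here. Other windows, thresholds, peak assignments, overlap rules and scales were tried.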

Additional observations from a re-analysis of the deposited data

How the results depend on the processing

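The difference in covered bases at Tyrobp, 1512 as reported, was 95 in the gene body alone, 3207 with 50 kb on each side, 2351 at a −log10 q of at least 10 and 396 with peaks nearest to its own start. At the threshold of 10 the WT peak at the Nfkbid start, of −log10 q 9.87, was dropped and the KO peak there, of 11.5, was kept. Fes turned to −146 with 10 kb on each side, −82 at a −log10 q of at least 10 and −5 with peaks nearest to its own start. Fcer1g turned to 251 under both −log10 q thresholds, 5 and 10. Trem2 turned to 231 with 50 kb on each side and to 291 with peaks nearest to its own start. Between 3 and 5 of the 7 genes had more covered bases in KO under the alternatives. The 5 KO-only and 6 WT-only regions became 11 and 12 when an overlap of 50% of both peaks was required, and 12 and 13 when summits had to lie within 100 bp. The KO-only count was 3, and the WT-only count 0, at a −log10 q of at least 10, and the WT-only count was 2 at 5. Shares over all regions under these rules are not given here, so these counts are no result about the 7 genes. Over all coding genes with a peak, 55.2% had more covered bases in KO at a threshold of 5 and 57.7% at 10. The median log2 ratio over the shared regions, 0.12, was 0.04 from raw pileups, 0.18 from the authors' fold enrichments, 0.07 and 0.17 with 10 kb and 50 kb on each side, and −0.04 when centred on the genome-wide median. Pathway genes with more covered bases in KO, 38 of 70 with a peak, were 27 of 65 with 10 kb on each side, 31 of 74 with 50 kb and 40 of 63 at a −log10 q of at least 10, so that both other windows turned the majority to WT. The shares over all coding genes with a peak were 49% as reported and 49.2%, 48.1% and 57.7% at these settings. Apart from effects set by construction, such as fewer peaks at a threshold, the cause was not tested. No paired analysis was possible because the files hold 1 list per genotype, and for the same reason no replicate could be left out. Summit pileups of 7 to 84 limit the precision of every ratio, and read depth is unknown.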
